A study of Chlorocebus aethiops with 12 samples.

Results

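The genes described here are the core components of the circadian clock: PER1, PER2, PER3, CRY1, CRY2, ARNTL, CLOCK, NR1D1, NR1D2 and DBP. They were chosen by accession and by textbook role, not by their values, though with earlier results of these data known. The symbols are those that the selection rule assigns to the accessions, since the array files give accessions without gene names. Of the 10 accessions, 9 were carried by 17 of the 41000 probes on the arrays. No probe carried the ARNTL accession NM_001178 in the files used here, so ARNTL was not analysed here. PER1, CLOCK and DBP had 1 probe each and the other 6 genes had several. On each of the 12 arrays each of these 17 probes exceeded its background clearly, and all 17 passed the filter on dim probes.

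The measurements come from COS-1, an established line of fibroblast-like cells from African green monkey kidney, transfected with FuGENE6 and kept afterwards in serum stripped with charcoal, which removes steroids. The 4 groups were cells given S211A+MDFIC and 100 nM dexamethasone (Dex) for 6 h, S211A+MDFIC and vehicle for 6 h, S211A and 100 nM Dex for 6 h, and S211A and vehicle for 6 h, with 3 biological replicates each per the labels. S211A is a glucocorticoid receptor (GR) mutant in which a serine that is phosphorylated in the wild-type receptor is replaced by alanine, Dex is a synthetic glucocorticoid that activates GR, and MDFIC is the protein whose effect on GR transcription the series examined. Every group carried the S211A receptor, so no array shows the cells without it or with a wild-type receptor in its place. The share of transfected cells is not given in the sources used here. In bulk RNA, fewer cells expressing a gene and less RNA per cell cannot be told apart. The labels give neither the clock time of harvest nor a step that sets the cells to a common phase, and 1 time point shows no rhythm.

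The mammalian clock is a feedback loop. The activators CLOCK and ARNTL (BMAL1) bind as a pair to E-boxes and switch on the PER and CRY genes, whose proteins enter the nucleus and inhibit that pair. In a second loop the nuclear receptors NR1D1 and NR1D2 (REV-ERB alpha and beta), also induced by CLOCK and ARNTL, repress ARNTL, and DBP is an output transcription factor that acts at D-boxes. Glucocorticoids are a known timing signal for clocks in peripheral tissues, and PER1 is a textbook direct target of GR.

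Human probes were hybridised with monkey RNA, so a probe's brightness depends on how well it matches the monkey transcript, and levels of different probes are not compared. A level is the log2 of the processed signal minus the 75th percentile of its array, so that 0 is the 75th percentile. Probes of a gene are lettered from the brightest to the dimmest. On slide 1, 67.7% to 71.7% of all probes exceeded their background clearly, and on slides 2 and 3, 76.2% to 80.6% did, while arrays of a group correlated across probes with r of 0.986 to 0.996. Dex replicate 1 of the S211A cells shared slide 1 with all 3 S211A vehicle arrays. Dex replicates 2 and 3 of these cells were on slide 2, together with vehicle replicates 1 and 2 of the S211A+MDFIC cells, whose vehicle replicate 3 was on slide 3 with all 3 of their Dex arrays. Marker genes were listed by accession. Of these, 4 of the 5 fibroblast genes with a probe, all 4 epithelial and all 3 kidney tubule genes had a probe well above background on all 12 arrays. The other fibroblast gene and the 1 leukocyte gene with a probe were so on no array. The transfected genes were not checked by level, since no file pairs an accession with their symbols.

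Without a slide term, 4 of the 9 genes had a probe called for Dex in both transfections. These were 5 of the 17 probes, against 3.93% of all probes called in both in the same direction. PER1 and CRY2 rose and NR1D1 and NR1D2 fell, each by less than 2-fold, whereas no probe of PER2, PER3, CRY1, CLOCK or DBP passed the test. With slide as a fixed block, only PER1 and NR1D1 probe A were called in both transfections. The block called 2.17% of all probes in S211A+MDFIC cells and 2.52% in S211A cells, and the share called in both was not computed. In S211A+MDFIC cells 6 of the 17 probes were called at a limma adjusted p under 0.05, against 9.48% of all 31224 probes tested, with 3 higher (5.85% of all probes) and 3 lower (3.63%). At an unadjusted p under 0.05 there were 11 (26.2% of all probes). For S211A cells 5 of the 17 were called, against 6.14% of all probes, with 2 higher (4.03%) and 3 lower (2.11%), and 10 had an unadjusted p under 0.05 (19.4% of all probes). The balance of higher and lower calls over all probes depends on the scaling: 61.7% of calls were higher in S211A+MDFIC cells and 65.7% in S211A cells, and centring each array on its median gave 51.2% and 50.5%, while no scaling gave 80.3% and 84.2%. The called clock probes kept their directions under every alternative that was run. The median absolute log2 difference of the 17 probes was 0.47 in S211A+MDFIC cells and 0.30 in S211A cells, against 0.15 and 0.12 over all probes.

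PER1, a repressor of the CLOCK and ARNTL pair, showed the largest difference of the 17 probes under Dex in both transfections without a slide term. With slide as a fixed block PER3 probe B was wider in S211A+MDFIC cells, at -0.86 against 0.78 for PER1. Its single probe (NM_002616, A_23_P89589) lay at 0.24, 0.29 and 0.39 on the S211A+MDFIC Dex arrays, against -0.61, -0.64 and -0.47 on the S211A+MDFIC vehicle arrays. On the S211A Dex arrays it lay at 0.34, 0.30 and 0.39, against -0.53, -0.54 and -0.41 on the S211A vehicle arrays. All 6 Dex arrays were above all 6 vehicle arrays. The rise was 1.84-fold in S211A+MDFIC cells (log2 0.88, SE 0.07, limma adjusted p = 3.49e-05) and 1.78-fold in S211A cells (log2 0.84, SE 0.07, limma adjusted p = 5.67e-05). With slide as a fixed block the differences were 0.78 (limma adjusted p = 0.00536) and 0.83 (limma adjusted p = 0.00294). The call held under 24 of 25 alternatives in each transfection, with adjusted p of 1.53e-05 to 0.227 and 2.53e-05 to 0.122, and ended only when 1 slide was fitted alone.

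The accessions whose level followed that of PER1 most closely over the 12 arrays were NM_002686, with a Pearson r of 0.992, and NM_001661, with 0.991, among 20935 accessions well above background on all arrays. The points share 3 slides and fall into Dex and vehicle arrays, so these values describe likeness only, and the files used here give no gene names for these accessions.

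CRY2, which inhibits CLOCK and ARNTL together with the PER proteins, rose at its brightest probe in both transfections. CRY2 probe A (NM_021117, A_23_P127394) lay at 0.99, 1.18 and 0.99 on the S211A+MDFIC Dex arrays, against 0.51, 0.65 and 0.52 under vehicle, a rise of 0.49 on the log2 scale, or 1.41-fold (SE 0.07, limma adjusted p = 0.00241). The S211A cells gave 1.09, 1.03 and 0.97 on the Dex arrays, against 0.55, 0.41 and 0.44 on the vehicle arrays, a rise of 0.56, or 1.48-fold (SE 0.07, limma adjusted p = 0.00128). The Dex and vehicle arrays of CRY2 probe A did not overlap in either transfection. With the slide block its differences were 0.53 in S211A+MDFIC cells, where the call ended (limma adjusted p = 0.0515, range over 25 alternatives 0.00141 to 0.443, called in 22), and 0.63 in S211A cells (limma adjusted p = 0.0239, range 0.000722 to 0.166, called in 24 of 25).

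The other CRY2 probes pointed the same way with a wider spread. CRY2 probe B lay at -2.50, -2.52 and -2.12 on the S211A+MDFIC Dex arrays, against -2.98, -2.94 and -3.07 under vehicle, and rose 1.53-fold (log2 0.61, SE 0.13, limma adjusted p = 0.0149). On the S211A arrays its levels were -2.80, -2.63 and -2.46 on the Dex arrays, against -3.01, -3.08 and -2.81 on the vehicle arrays, a difference of 0.34 that was not called (limma adjusted p = 0.172). The groups of probe B did not overlap in either transfection, and in S211A cells the gap was only that between -2.80 and -2.81. The call in S211A+MDFIC cells ended with the slide block (log2 0.68, limma adjusted p = 0.119) and without S211A+MDFIC vehicle replicate 1 (limma adjusted p = 0.0535) or replicate 3 (limma adjusted p = 0.0532), with a range of 0.00954 to 0.504 over 24 alternatives and a call in 19. CRY2 probe C, the dimmest, differed by 0.48 in S211A+MDFIC cells (limma adjusted p = 0.104) and by 0.59 in S211A cells (limma adjusted p = 0.0748). In S211A cells probe C was called in 2 of its 24 alternatives, with adjusted p from 0.0195 to 0.736. One of the 2 was the fit without S211A Dex replicate 1, the only Dex array on slide 1 (log2 0.76, limma adjusted p = 0.0195).

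NR1D1, the heme-binding repressor of ARNTL, fell at both of its probes in both transfections. NR1D1 probe A (NM_021724, A_23_P420873) lay at 1.09, 1.22 and 1.24 on the S211A+MDFIC Dex arrays, against 1.84, 1.79 and 1.76 under vehicle. For S211A cells the levels were 1.25, 1.13 and 1.19 on the Dex arrays, against 1.78, 1.91 and 1.86 on the vehicle arrays. Every Dex array was below every vehicle array. The probe fell by 0.61 on the log2 scale in S211A+MDFIC cells (SE 0.06, limma adjusted p = 0.000199) and by 0.66 in S211A cells (SE 0.06, limma adjusted p = 0.000143). These differences are 1.53-fold and 1.58-fold decreases. They were -0.58 (limma adjusted p = 0.0179) and -0.60 (limma adjusted p = 0.0127) with the slide block. The call held under 24 of 25 alternatives in each transfection, with adjusted p of 0.000102 to 0.357 and 7.19e-05 to 0.165, and ended only when 1 slide was fitted alone.

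NR1D1 probe B (A_24_P250227) gave the same picture at a lower signal. It lay at -1.78, -1.91 and -1.79 on the S211A+MDFIC Dex arrays, against -1.40, -1.35 and -1.33 under vehicle, and fell by 0.47 (SE 0.09, limma adjusted p = 0.00967). In S211A cells it lay at -1.95, -1.67 and -2.03 on the Dex arrays, against -1.43, -1.37 and -1.38 on the vehicle arrays, and fell by 0.49 (SE 0.09, limma adjusted p = 0.00892). The groups did not overlap in either transfection. With the slide block the differences were -0.49 and -0.55 and were no longer called (limma adjusted p = 0.135, range 0.00133 to 0.433 over 24 alternatives with a call in 21, and 0.0907, range 0.000947 to 0.154 with a call in 20).

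NR1D2, the paralogue of NR1D1, fell at its brighter probe. NR1D2 probe A (NM_005126, A_23_P302709) lay at -0.72, -0.53 and -0.63 on the S211A+MDFIC Dex arrays, against -0.11, -0.06 and -0.10 under vehicle, and fell by 0.53 on the log2 scale, or 1.45-fold (SE 0.06, limma adjusted p = 0.000658). The S211A cells gave -0.47, -0.50 and -0.55 on the Dex arrays, against -0.18, -0.15 and -0.30 on the vehicle arrays, and fell by 0.30, or 1.23-fold (SE 0.06, limma adjusted p = 0.0204). The groups were apart in both transfections. With the slide block the difference in S211A+MDFIC cells was -0.52 and was called (limma adjusted p = 0.0380, range 0.000374 to 0.427, called in 24 of 25 alternatives). In S211A cells it was -0.26 and was not called (limma adjusted p = 0.283, range over 25 alternatives 0.0128 to 0.428, called in 15), and there the call also ended without S211A vehicle replicate 1 (limma adjusted p = 0.0780), vehicle replicate 2 (limma adjusted p = 0.0824), Dex replicate 2 (limma adjusted p = 0.0609) or Dex replicate 3 (limma adjusted p = 0.0898). NR1D2 probe B differed by -0.27 in S211A+MDFIC cells and by -0.23 in S211A cells, with Dex and vehicle arrays apart in both, and was not called (limma adjusted p = 0.0765 and 0.169).

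**Figure D1:**
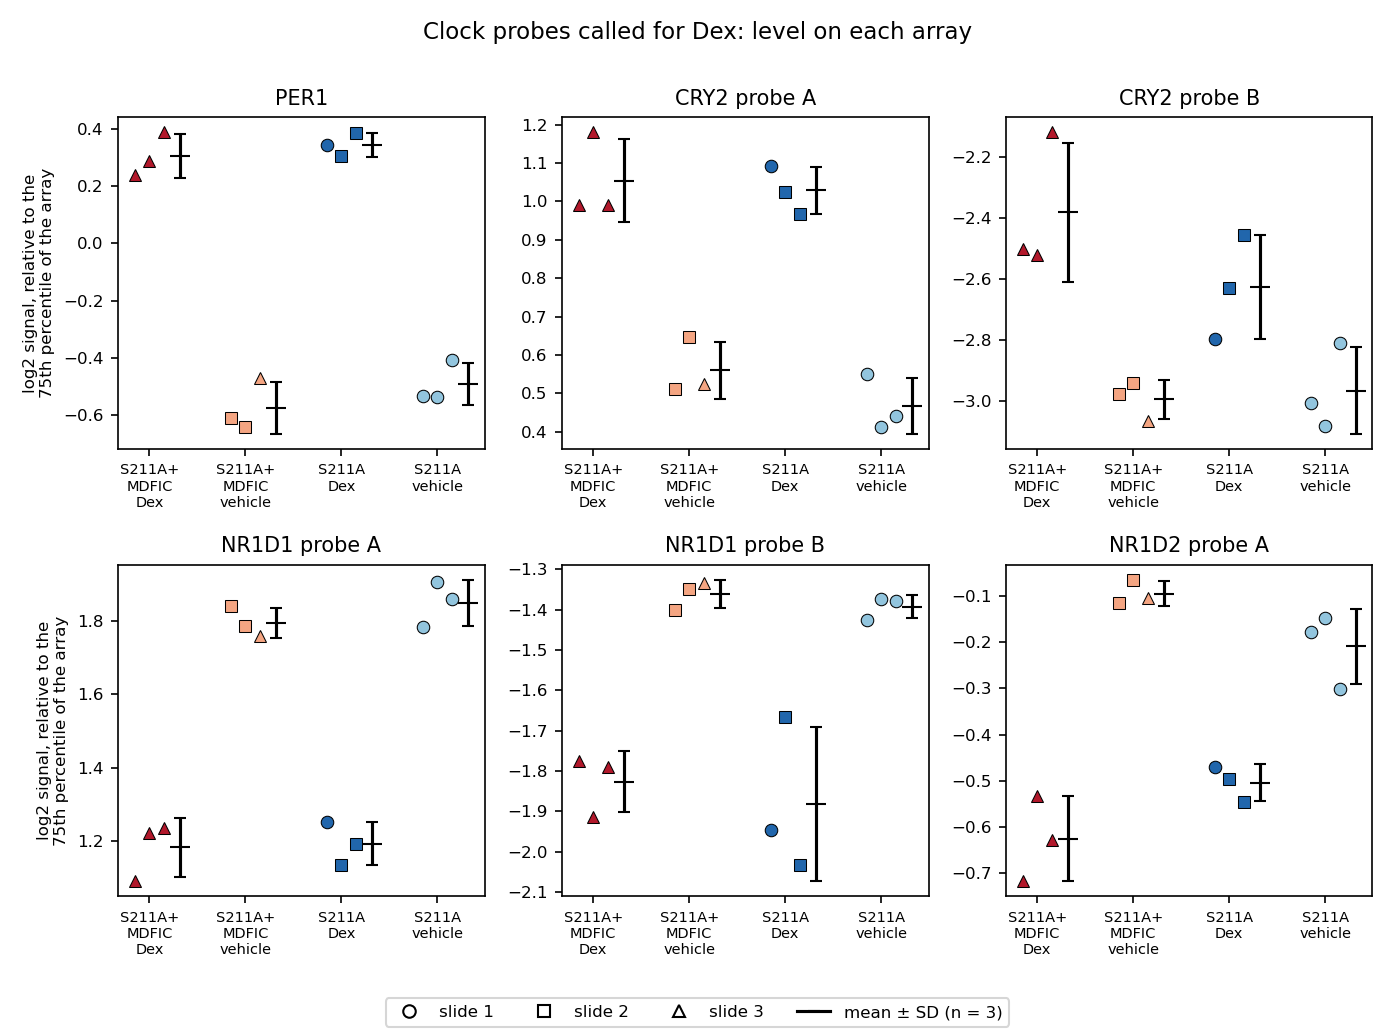
Level (y axis, log2 signal relative to the 75th percentile of the array, a separate scale for each panel) of the 6 clock probes called for Dex in at least 1 transfection. Points are single arrays, shaped by slide, and the bar beside them is the mean with the SD of 3 arrays. In each panel the Dex arrays of a transfection lie on 1 side of its vehicle arrays, above them for PER1 and CRY2 and below them for NR1D1 and NR1D2.

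None of the remaining probes passed the test in either transfection. The PER2 probes, which report another repressor of the PER family, had higher means under Dex. PER2 probe A differed by 0.47 in S211A+MDFIC cells and 0.32 in S211A cells, but its arrays overlapped: -3.66, -3.48 and -3.91 under Dex against -4.16, -4.50 and -3.79 under vehicle in S211A+MDFIC cells. PER2 probe B differed by 0.08 in S211A+MDFIC cells and 0.30 in S211A cells. For both PER2 probes the limma adjusted p lay between 0.198 and 0.740.

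PER3, the third PER paralogue, had probes whose differences were unlike in size and sign. PER3 probe B lay at -4.81, -4.42 and -5.11 on the S211A+MDFIC Dex arrays, against -4.35, -4.11 and -3.92 under vehicle, a difference of -0.65 (SE 0.19, limma adjusted p = 0.0637) with groups apart. In S211A cells the levels were -3.89, -4.49 and -4.23 on the Dex arrays, against -3.71, -3.79 and -3.63 on the vehicle arrays, a difference of -0.49 (SE 0.19, limma adjusted p = 0.200). PER3 probe A differed by -0.36 in S211A+MDFIC cells (limma adjusted p = 0.0581, range over 25 alternatives 0.0193 to 0.691, called in 3) and by -0.16 in S211A cells (limma adjusted p = 0.461). PER3 probe C, the dimmest of the 17, differed by 0.16 and 0.03. Probe B in S211A+MDFIC cells was called in 3 of 24 alternatives, with adjusted p from 0.0178 to 0.564. Among the 3 were the fits without S211A+MDFIC Dex replicate 2 (limma adjusted p = 0.0178) and without S211A Dex replicate 1 (limma adjusted p = 0.0491). Its differences were -0.86 in S211A+MDFIC cells and -0.18 in S211A cells with the slide block. PER3 probe A reached the threshold with normexp background correction, with the filter that asks for a signal above background on all 12 arrays, and without S211A+MDFIC Dex replicate 2.

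CRY1, the paralogue of CRY2, was not called at either probe. CRY1 probe A lay at -0.88, -1.05 and -1.01 on the S211A+MDFIC Dex arrays, against -0.60, -0.71 and -0.79 under vehicle, a difference of -0.28 with groups apart (limma adjusted p = 0.0829), and differed by -0.19 in S211A cells with groups overlapping (limma adjusted p = 0.287). CRY1 probe B had the widest spread of the 17 within groups, a pooled SD of 0.38, and differed by -0.42 in S211A+MDFIC cells and by -0.29 in S211A cells. The difference in S211A cells turned to 0.16 with the slide block, and it was negative under 21 of 24 alternatives. The activator CLOCK differed by -0.07 in S211A+MDFIC cells (95% interval -0.34 to 0.20) and by -0.11 in S211A cells (95% interval -0.38 to 0.16), without adjustment for the number of probes, and with the slide block it differed by 0.17 and -0.11. DBP, the output factor, was the only probe whose sign differed between the transfections without a slide term, 0.09 in S211A+MDFIC cells (95% interval -0.14 to 0.31) and -0.21 in S211A cells (95% interval -0.44 to 0.02). The signs of DBP, CRY1 probe B and CLOCK differed between the transfections once slide was a block.

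**Figure D2:**
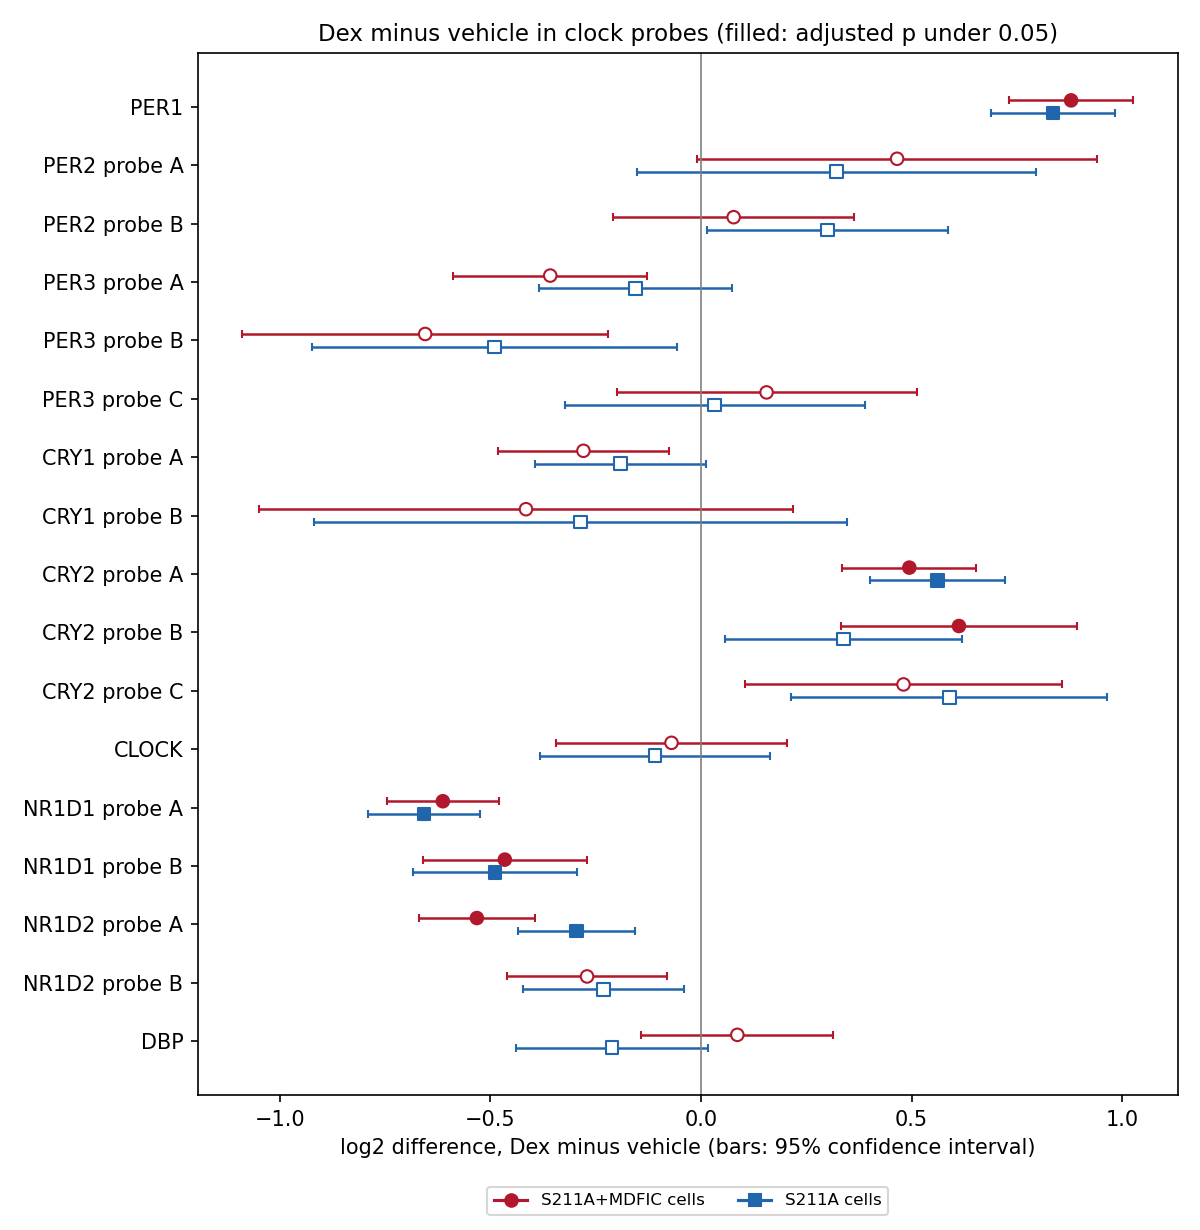
Log2 difference between Dex and vehicle arrays (x axis) for the 17 clock probes in S211A+MDFIC cells (circles) and S211A cells (squares), with 95% confidence intervals that are not adjusted for the number of probes. Filled symbols are called at an adjusted p under 0.05: PER1 and CRY2 lie to the right of 0, and NR1D1 and NR1D2 to the left.

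**Figure D3:**
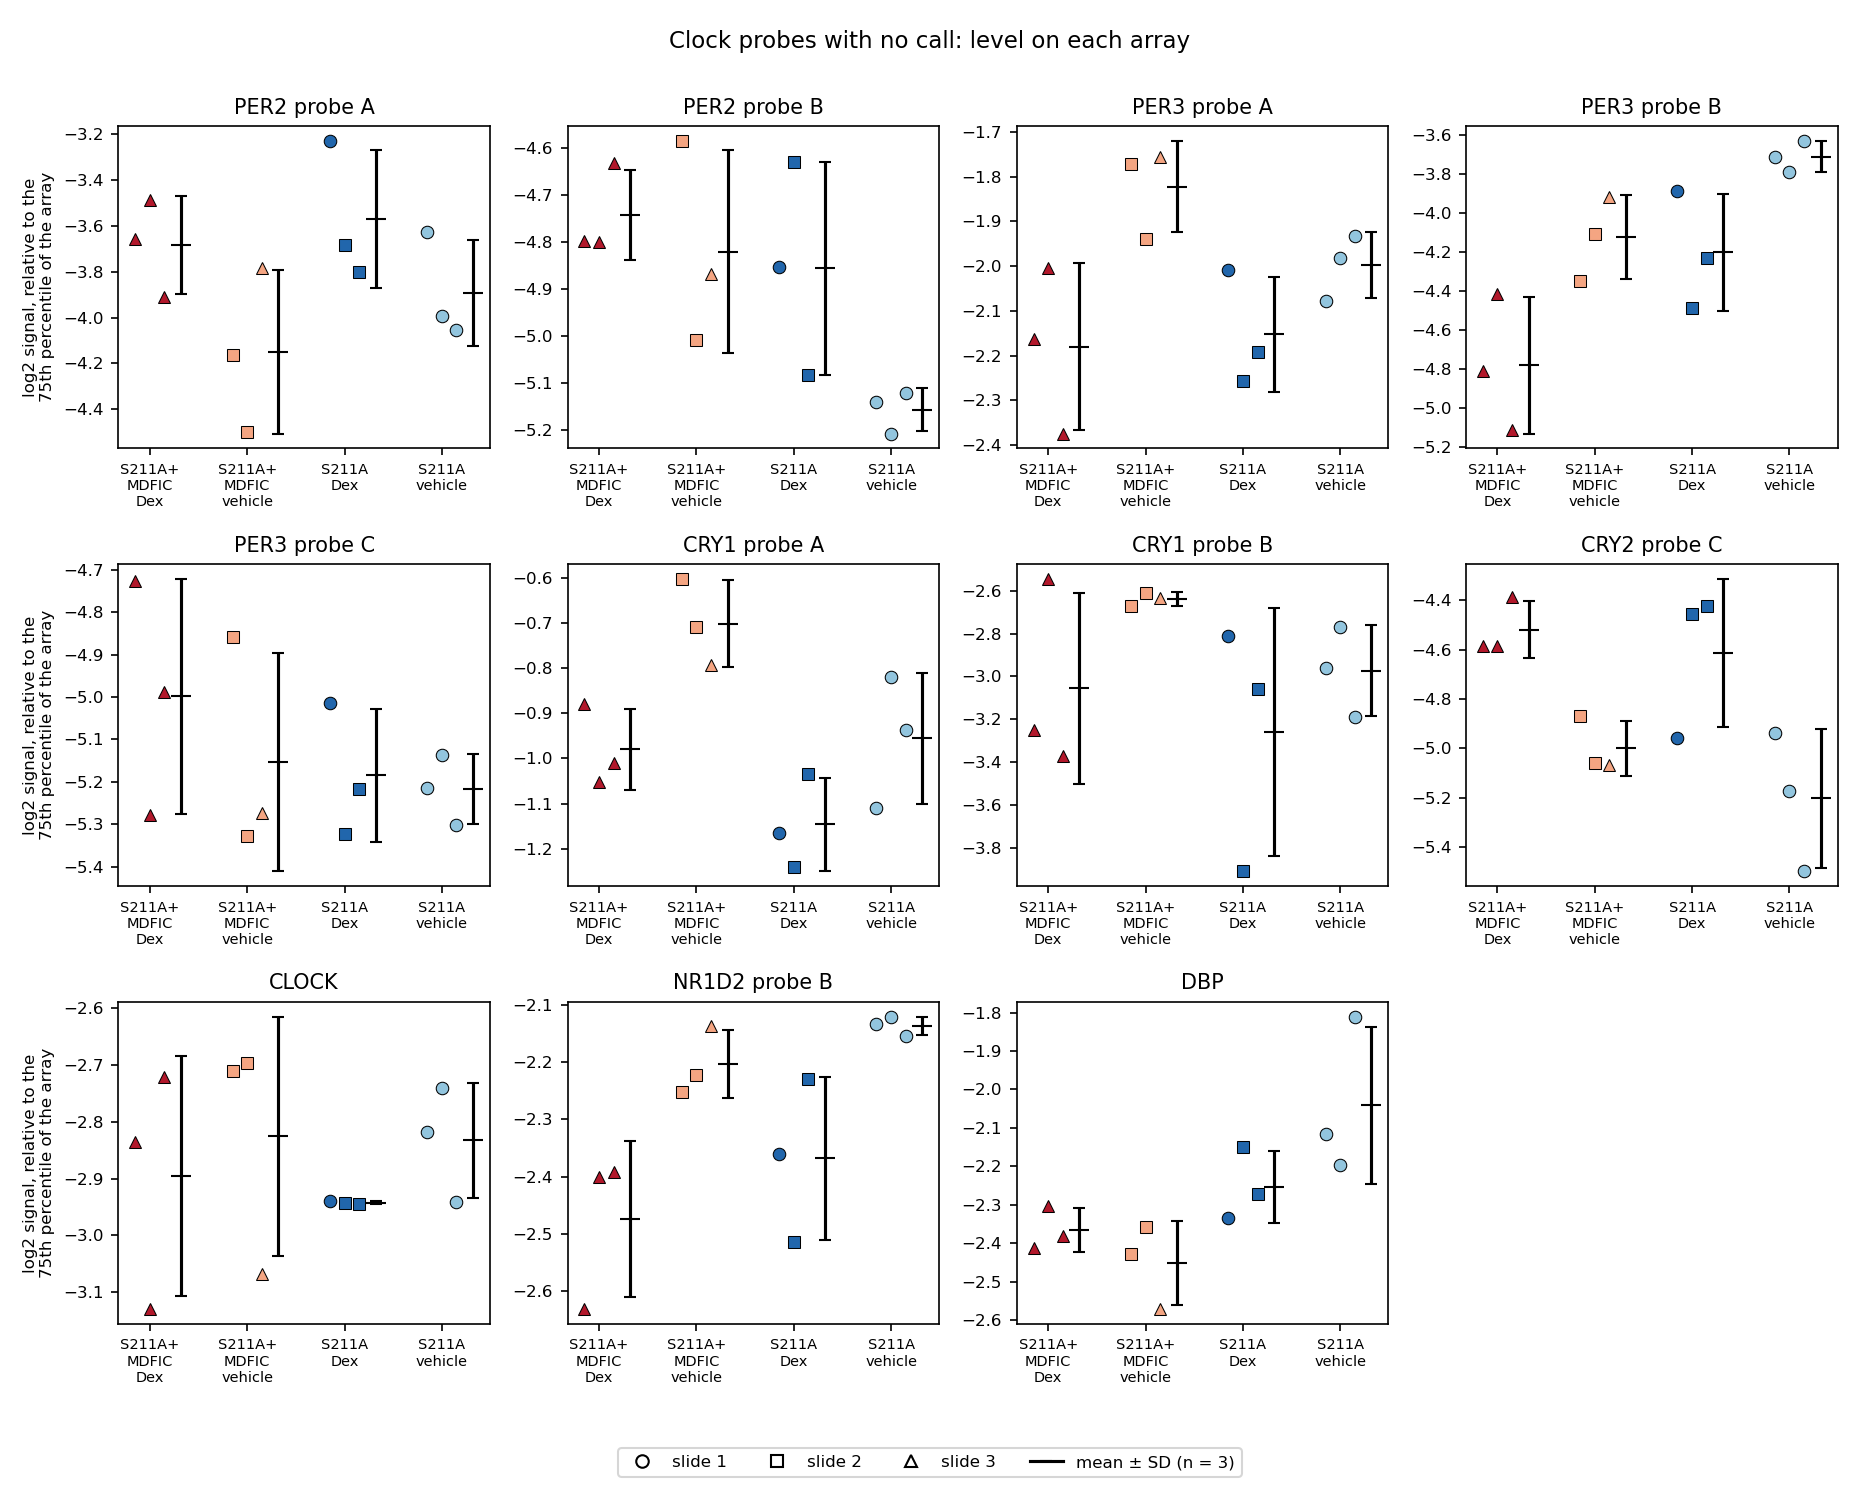
Level (y axis, log2 signal relative to the 75th percentile of the array, a separate scale for each panel) of the 11 clock probes called in neither transfection. Points are single arrays, shaped by slide, with the mean and SD of 3 arrays beside them. Dex and vehicle arrays overlap for 6 of the 11 in S211A+MDFIC cells and for 8 of the 11 in S211A cells, and for CRY1 probe B the SD reaches 0.58 in S211A Dex cells.

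Dex and vehicle arrays did not overlap for 11 of the 17 probes in S211A+MDFIC cells, against 31.2% of all probes, with 4 higher (18.3%) and 7 lower (12.9%). They did not overlap for 9 of the 17 in S211A cells, against 25.7%, with 4 higher (14%) and 5 lower (11.7%). The difference had the same sign in both transfections for 16 of the 17 probes, against 63.3% of all probes, and with the slide block for 14 of the 17, against 55.1%. Without the block 5 probes of 4 genes were called in both and in the same direction, against 3.93%. The comparisons share no array, but slide 2 held Dex arrays of S211A cells and vehicle arrays of S211A+MDFIC cells. The pooled SD within groups was 0.06 to 0.16 for the 6 called probes and 0.10 to 0.38 for the 11 others, and a missed threshold in these 11 does not show that their RNA was unchanged.

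In each Dex comparison 1 slide held both groups, and for all 17 probes the difference with slide as a fixed block equalled that within this slide, 3 S211A+MDFIC Dex arrays against 1 vehicle array on slide 3, and 1 S211A Dex array against 3 vehicle arrays on slide 1. With the block 3 of the 17 probes were called in S211A+MDFIC cells (PER1, NR1D1 probe A and NR1D2 probe A), against 2.17% of all probes. In S211A cells 3 were called (PER1, CRY2 probe A and NR1D1 probe A), against 2.52%. Thus PER1 and NR1D1 probe A were called in both transfections with and without the block. All 11 calls made without the block kept their sign with it. When a single slide was fitted alone, 0 of the 17 were called in limma, against 0.016% of all probes on slide 3 in S211A+MDFIC cells and 0.148% on slide 1 in S211A cells. At an unadjusted p under 0.05 there were 8 on slide 3 (8.16% of all probes) and 7 on slide 1 (12.9%), and the lone array is then assumed to vary like the others.

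**Figure D4:**
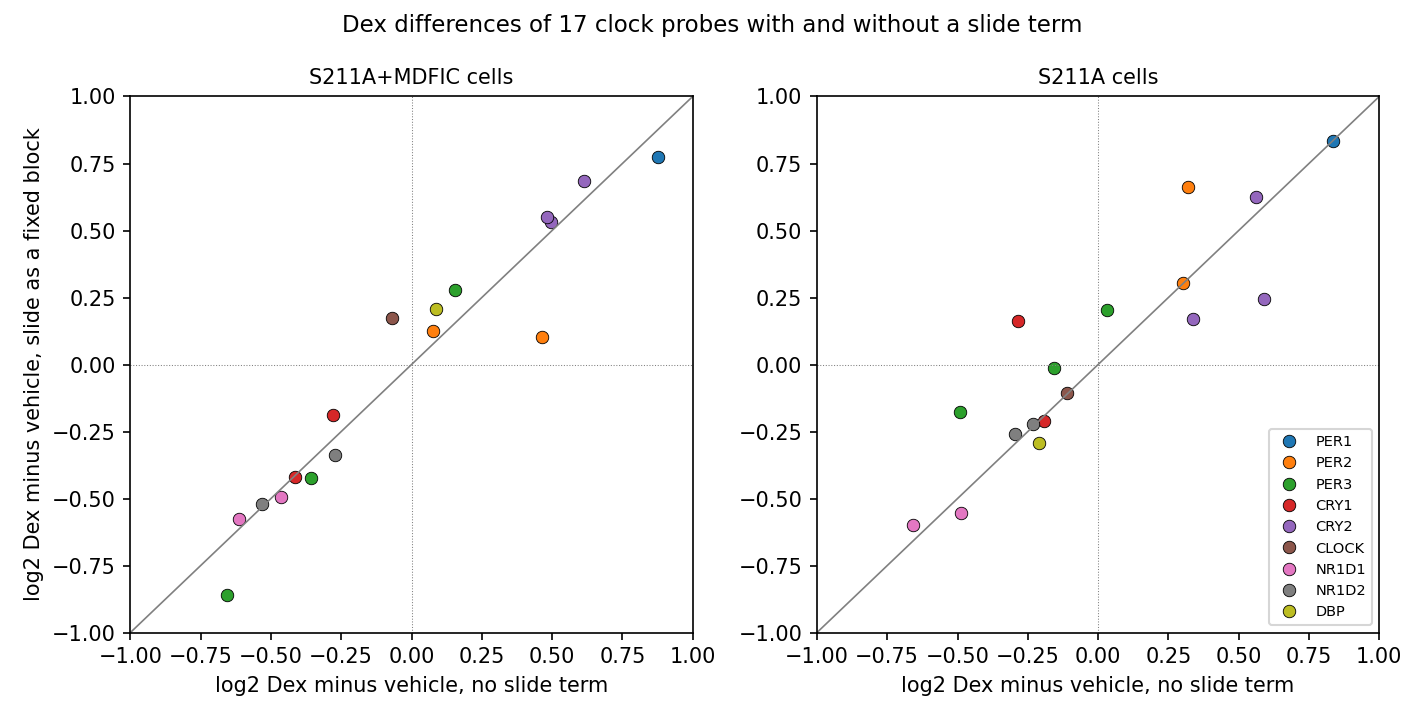
Log2 difference between Dex and vehicle for the 17 clock probes without a slide term (x axis) and with slide as a fixed block (y axis), in S211A+MDFIC cells (left) and S211A cells (right), coloured by gene. The line marks equal values. PER1, CRY2, NR1D1 and NR1D2 keep their sign, while single probes of PER2, PER3, CRY1 and CRY2 lie farther from the line. CRY2 probe C moves from 0.59 to 0.24 in S211A cells. The sign turns for CLOCK in S211A+MDFIC cells (-0.07 to 0.17) and for CRY1 probe B in S211A cells (-0.29 to 0.16).

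No clock probe was called for MDFIC. Under Dex, limma called 0 of the 17 probes for S211A+MDFIC against S211A, where 0.285% of all probes were called, and 1 probe had an unadjusted p under 0.05 (12.9% of all probes). Under vehicle, limma called 0 of the 17 against 0.756% of all probes, with 3 at an unadjusted p under 0.05 (16.2% of all probes). With the slide block limma also called 0 of the 17, under Dex against 0.0448% of all probes and under vehicle against 0.304%. With so few calls among all probes, a count of 0 among 17 does not set the clock genes apart. The groups were apart for 0 of the 17 probes under Dex, against 14.5% of all probes, and for 6 under vehicle, against 28.4%, with 4 higher (12.7%) and 2 lower (15.6%). No slide held S211A+MDFIC and S211A arrays of the same treatment, so that no value within a slide can be given for either comparison. With the block, the value under vehicle adds the Dex difference on slide 1, with 1 Dex array, to a difference on slide 2. The value under Dex adds the Dex difference on slide 3, with 1 vehicle array. On slide 2 the difference is that of S211A+MDFIC vehicle against S211A Dex arrays.

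The probes called for Dex gave the following MDFIC differences without a slide term. PER1 differed between S211A+MDFIC and S211A by -0.04 under Dex (95% interval -0.19 to 0.11) and by -0.08 under vehicle (-0.23 to 0.06). NR1D1 probe A differed by -0.01 under Dex (-0.14 to 0.12) and by -0.05 under vehicle (-0.19 to 0.08). CRY2 probe A differed by 0.03 under Dex (-0.13 to 0.18) and by 0.09 under vehicle (-0.07 to 0.25). These intervals include 0, and each difference is smaller in size than either Dex difference of its probe. CRY2 probe B differed by 0.24 under Dex (-0.04 to 0.53), beside a Dex difference of 0.34 in S211A cells, and by -0.03 under vehicle (-0.31 to 0.25). NR1D2 probe A differed by -0.12 under Dex (-0.26 to 0.02) and by 0.11 under vehicle (-0.02 to 0.25), beside a Dex difference of -0.30 in S211A cells. NR1D1 probe B differed by 0.05 under Dex (-0.14 to 0.25) and by 0.03 under vehicle (-0.16 to 0.23). With the slide block, under Dex and under vehicle, PER1 differed by -0.19 and -0.14 (SE 0.12, against 0.07 without it). NR1D1 probe A then differed by 0.07 and 0.05 (SE 0.12), and CRY2 probe A by 0.11 and 0.21 (SE 0.14). CRY2 probe B differed by 0.27 and -0.25 (SE 0.23). For NR1D2 probe A the values were -0.09 and 0.17 (SE 0.13), and for NR1D1 probe B -0.02 and -0.08 (SE 0.18).

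Among the other probes, PER3 probe B had the widest MDFIC differences without a slide term, -0.58 under Dex (limma adjusted p = 0.287) and -0.41 under vehicle (limma adjusted p = 0.333). They were -0.73 and -0.05 with the slide block. DBP was close to it under vehicle, and both probes had their groups apart there. DBP lay at -2.43, -2.36 and -2.57 on the S211A+MDFIC vehicle arrays, against -2.12, -2.20 and -1.81 on the S211A vehicle arrays, a difference of -0.41 (SE 0.10, limma adjusted p = 0.0994). With the slide block the DBP difference was -0.48 (limma adjusted p = 0.477, range over 24 alternatives 0.0616 to 0.477).

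The response to Dex in S211A+MDFIC cells was also set directly against that in S211A cells. In limma 0 of the 17 probes passed this interaction test, against 0.186% of all probes, and 1 had an unadjusted p under 0.05 (9.41% of all probes). With the slide block it was also 0, against 0.183%. That probe was NR1D2 probe A, whose Dex difference was lower by 0.24 in S211A+MDFIC cells (95% interval -0.43 to -0.04, limma adjusted p = 0.469). For NR1D2 probe B the responses differed by -0.04. Without a slide term the responses differed most for DBP, by 0.30 (95% interval -0.02 to 0.62), and next for CRY2 probe B, by 0.27 (-0.12 to 0.67). With the slide block these values were 0.50 and 0.51, and PER3 probe B had the widest, -0.68. For PER1 the responses differed by 0.04 (95% interval -0.16 to 0.25), for CRY2 probe A by -0.07 (-0.29 to 0.16) and for NR1D1 probe A by 0.05 (-0.14 to 0.23). These intervals are not adjusted for the number of probes, and a missed threshold does not show that the responses were alike.

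**Figure D5:**
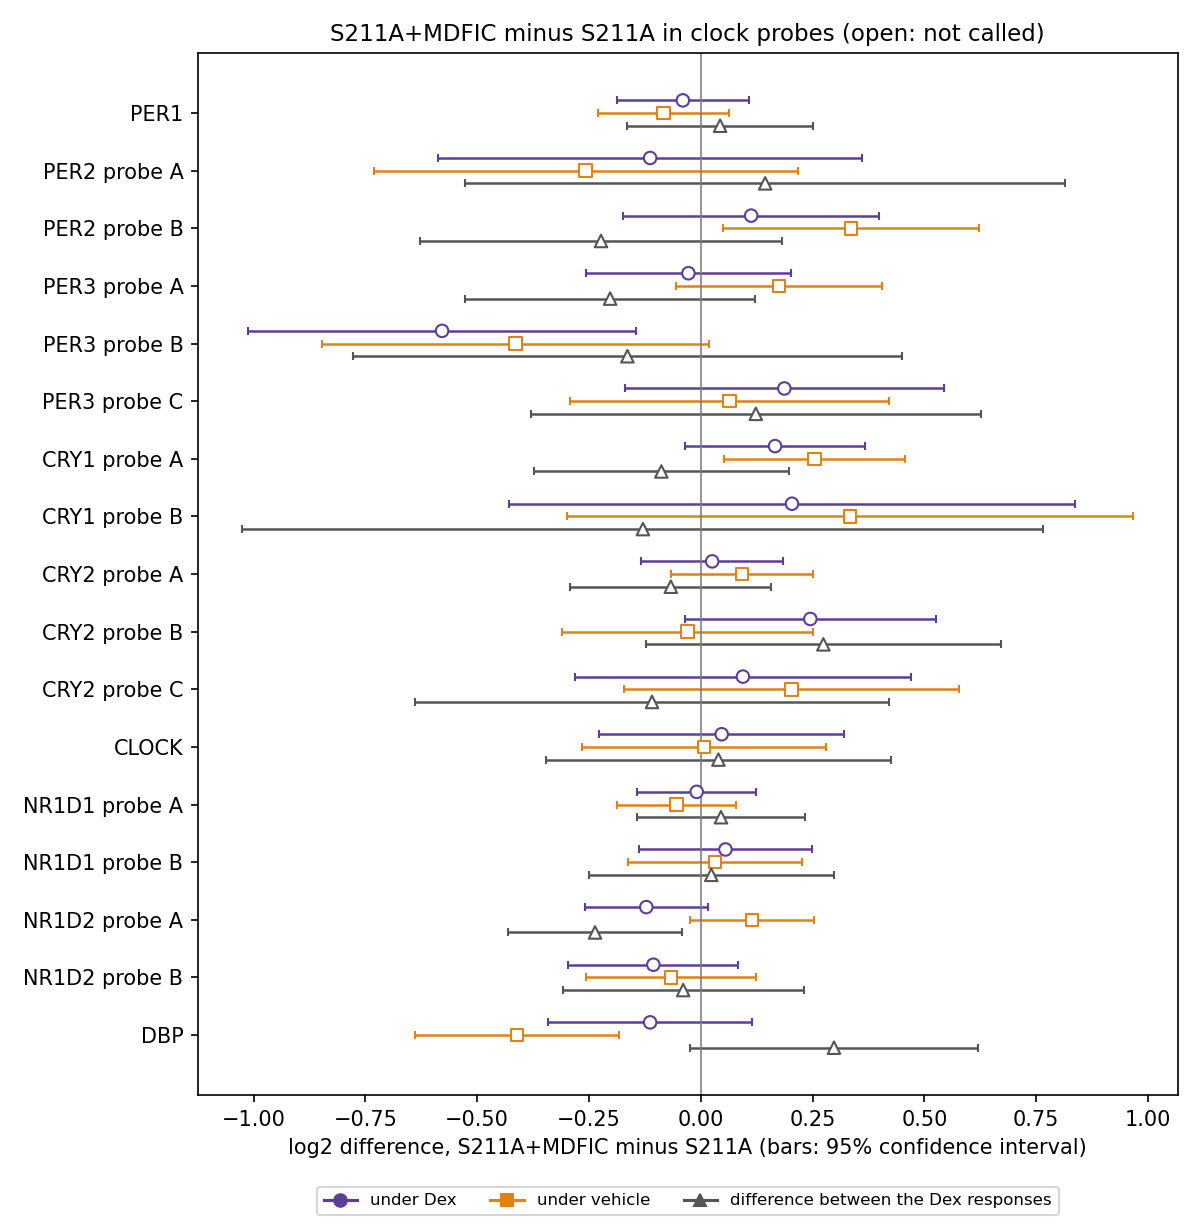
Log2 difference between S211A+MDFIC and S211A cells (x axis) for the 17 clock probes under Dex (circles) and under vehicle (squares), and the Dex response in S211A+MDFIC cells minus that in S211A cells (triangles), with 95% confidence intervals that are not adjusted for the number of probes. All symbols are open because 0 of the 17 probes were called. Without a slide term, as drawn here, the PER1 and NR1D1 symbols lie close to 0.

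A list of 18 further clock genes was examined by accession. It covers paralogues of CLOCK and ARNTL, other E-box and D-box factors, the ROR receptors that act against NR1D1, and the kinases and ubiquitin ligases that set the stability of PER and CRY. Of its genes, 16 had a tested probe, 28 probes in all. Under Dex 2 of the 28 probes were called in each transfection, against 9.48% of all probes in S211A+MDFIC cells and 6.14% in S211A cells. The share of calls in either direction was thus close to that over all probes. Both calls were lower, and lower calls made up 3.63% of all probes in S211A+MDFIC cells and 2.11% in S211A cells. The median absolute difference over the 28 was 0.14 in S211A+MDFIC cells and 0.12 in S211A cells, close to the 0.15 and 0.12 over all probes. The probes that fell were the same in both transfections. NM_003670 fell to -1.27 ± 0.03 under Dex, against -0.23 ± 0.05 under vehicle, in S211A+MDFIC cells (SD, n = 3 each; log2 -1.04, SE 0.06, limma adjusted p = 1.03e-05). In S211A cells it fell to -1.35 ± 0.13, against -0.35 ± 0.01 under vehicle (SD, n = 3 each; SE of the difference 0.06, limma adjusted p = 1.49e-05). With slide as a fixed block, the only alternative computed for these accessions, NM_003670 differed by -1.07 in S211A+MDFIC cells (limma adjusted p = 0.000766) and by -1.12 in S211A cells (limma adjusted p = 0.000438). NM_144697 differed by -0.50 in S211A+MDFIC cells (limma adjusted p = 0.00544) and by -0.57 in S211A cells (limma adjusted p = 0.00278). With the block its call ended in S211A+MDFIC cells (log2 -0.52, limma adjusted p = 0.0547) and held in S211A cells (log2 -0.72, limma adjusted p = 0.0137). For MDFIC under Dex, MDFIC under vehicle and the difference between the Dex responses, limma called 0 of the 28 probes. Of all probes 0.285%, 0.756% and 0.186% were called, so a count of 0 does not set this list apart.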

How the data were processed

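Each of 12 COS-1 RNA samples, labelled with Cy3, was measured on its own Agilent array with human probes. The deposited values are linear intensity readings made by the authors with Agilent's Feature Extraction software (12.0.0.7 in the file headers), which subtracts the background within an array. A series-wide table deposited by the authors holds the same intensity in all 45015 rows, with no scaling between arrays.

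Samples were grouped by title. From the log2 of each signal the 75th percentile of its array was subtracted, outlier spots (945 values, 0 of them in clock probes) were set to missing and the 1639 control spots were left out. A probe was tested if every array of some group marked it well above background and each group had at least 2 values. All probes of an accession were kept, and each was named where called or past 1.5-fold in any comparison. Group means were compared over 12 arrays with limma 3.58.1 in R 4.3.3, two-sided, with Benjamini-Hochberg adjustment over 31224 probes. The fit was tested on data simulated with independent noise and no slide effect, so that test does not bear on the slide layout. Figures were drawn with matplotlib 3.10.9. The clock genes and the other lists were chosen with earlier results of these data known. Alternatives changed the background correction, scaling, filter, outliers, probes, blocks and samples. Same-numbered arrays of different groups did not deviate together (r of -0.25 to 0.24 over 18 pairs), so the numbers were not taken to pair samples.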

Additional observations from a re-analysis of the deposited data

How the results depend on the processing

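The number of clock probes called for Dex, 6 in S211A+MDFIC cells and 5 in S211A cells, was 3 and 3 with slide as a fixed block and 0 and 0 within 1 slide. In S211A cells it was also 3 with the unscaled series-wide table and 3 with only the compared groups in the fit. Leaving out 1 array gave 5 to 8 and 4 to 6. For MDFIC under Dex, MDFIC under vehicle and the difference between the Dex responses, limma called 0 clock probes under every alternative, with adjusted p of at least 0.0649, 0.0616 and 0.119. With the replicate block PER1 and NR1D1 probe A were called in both transfections and no count of clock calls moved by over 1.5 times, while the calls over all probes fell to 114 for MDFIC under vehicle, against 236 without it. For the 13 Dex differences that were called or reached 1.5-fold, 320 values were computed under alternatives: 0 turned direction, 31 lost the call and 5 gained it. Outside these, PER3 probe A in S211A+MDFIC cells gained a call under 3 of 25 alternatives and CRY2 probe C under 1 of 24. Leaving out the scaling between arrays gave a median over all probes of 0.12 for MDFIC under Dex and of 0.12 under vehicle, against 0.01 and -0.01 with it. The cause of the lost calls was not tested. The blocks and smaller fits hold fewer degrees of freedom. With the slide block the SE of PER1 was 0.09, against 0.07 without it. NR1D2 probe A in S211A cells also lost its call with normexp, median centring or no scaling, which keep all arrays and add no block.

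Counts over all probes moved more. For Dex in S211A+MDFIC and S211A cells, 2960 and 1916, they were 676 and 788 with the slide block, 651 and 619 without scaling, 1489 and 965 with only the compared groups and 5 and 46 within 1 slide, and the second was 1098 with normexp. Leaving out 1 array gave 1408 to 5716 and 1073 to 2251. For MDFIC under Dex (89) and under vehicle (236) they were 14 and 95 with the slide block, 198 and 636 with it as a random block, 27 and 78 without scaling, 9 and 117 with only the compared groups, 48 and 1812 with no filter, and 109 under vehicle with normexp. Leaving out 1 array gave 31 to 633 and 66 to 447. For the test of unequal Dex responses (58) the counts were 105 with normexp, 0 without scaling, 1 with no filter, 122 with probes well above background on all arrays, 152 with the random block, 36 with the replicate block and 0 to 133 without 1 array.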
